A study of Mus musculus with 16 samples.

Results

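The 41 genes described here build autophagosomes or belong to the lysosome. They were chosen by name from 18193 genes that have a probe set with a single symbol: every symbol made of Atg and a digit, every Wipi, Map1lc3 and Gabarap gene, and 16 further genes of autophagy initiation, cargo binding and the lysosome. The 41 genes have 97 such probe sets, and the brightest one on average stands for each gene. Expression was measured in mouse striatum on Affymetrix 430 2.0 arrays as log2 probe-set levels. All 4 groups are of strain B6xCBA, with 4 biological replicates each and 16 arrays in all. They are wild type, DREAM+/- (heterozygous for a knockout of Kcnip3, the gene of the calcium-binding repressor DREAM), R6/2 (transgenic for exon 1 of human huntingtin bearing a long CAG repeat, a model of Huntington's disease) and R6/2 x DREAM+/-, bred by crossing DREAM knockout with R6/2 mice. The labels name striatal neurons as the cell type, but the RNA came from whole striatum, and no source used here gives the age or sex of the mice. Nothing says whether a replicate is 1 animal or a pool, so the p-values measure the spread between these samples.

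Macroautophagy encloses cytoplasm in a double membrane and delivers it to the lysosome. The ULK kinase complex starts the process, the class III PI3-kinase complex marks the membrane with PI3P, ATG9 and ATG2 proteins supply lipid, and ubiquitin-like conjugation enzymes attach ATG8 proteins (the LC3 and GABARAP families) to the growing membrane, where receptors such as p62 bring in cargo. Cathepsins then degrade the content in the lysosome, and TFEB is a transcription factor of many genes of both compartments. In striatal neurons autophagy is one route by which mutant huntingtin is degraded. A transcript level is not a measure of autophagic flux.

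The upstream sequences that bear on these genes are those of the lysosomal and autophagy genes with an E-box, CACGTG, the core of the site that TFEB binds, and that of Atg16l2, the gene with the clearest difference by DREAM genotype. Of the 41 genes, 35 were matched by symbol in a RefSeq promoter table (build GRCm38.p6), with 41 windows that run from 250 bases before to 50 bases after a transcript start. CACGTG, which reads the same on both strands, was in 8 of these windows (19.5%) and in 7.15% of all 32851 windows of that length. The longer CACGTGAC, on either strand and always overlapping a CACGTG, was in 6 (14.6%) against 2.25% of all windows. The 8 genes with a CACGTG were Atg14, Atg3, Atg5, Atg7, Ctsa, Ctsd, Ctsl and Lamp1. The 150 bases before the start are shown for 3 of them, with each CACGTG in capitals, and for Sqstm1, the gene of p62, which has none in this stretch.
Lamp1 (chr8:13159011-13159160, plus strand): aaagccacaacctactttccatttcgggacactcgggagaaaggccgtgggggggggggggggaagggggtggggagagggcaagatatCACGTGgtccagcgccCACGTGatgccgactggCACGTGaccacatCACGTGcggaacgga
Ctsd (chr7:142387828-142387977, minus strand): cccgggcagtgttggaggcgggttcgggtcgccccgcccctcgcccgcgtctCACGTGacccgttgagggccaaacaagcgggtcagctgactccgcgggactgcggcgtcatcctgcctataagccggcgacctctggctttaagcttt
Atg3 (chr16:45158679-45158828, plus strand): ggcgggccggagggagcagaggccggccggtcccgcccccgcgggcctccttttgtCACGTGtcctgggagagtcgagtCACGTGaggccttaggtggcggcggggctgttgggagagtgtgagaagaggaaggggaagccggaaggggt
Sqstm1 (chr11:50210821-50210970, minus strand): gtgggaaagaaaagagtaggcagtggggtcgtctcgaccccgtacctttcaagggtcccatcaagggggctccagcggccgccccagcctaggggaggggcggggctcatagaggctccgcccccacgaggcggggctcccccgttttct
Lamp1 has 4 such hexamers, the first beginning 61 bases before the start and the last 15 bases before it. Atg3 has 2, at 94 and 71 bases before the start. The core of the element that DREAM binds, GTCA or its complement TGAC, is too common to set genes apart: it was in 85.4% of the members' windows and 85.2% of all windows. How often both orientations lie side by side in other windows was not counted, so such a pair does not set a gene apart either. In the Atg16l2 stretch, chosen for the gene's difference by DREAM genotype, they do so within 8 bases, shown in capitals.
Atg16l2 (chr7:101302089-101302238, minus strand): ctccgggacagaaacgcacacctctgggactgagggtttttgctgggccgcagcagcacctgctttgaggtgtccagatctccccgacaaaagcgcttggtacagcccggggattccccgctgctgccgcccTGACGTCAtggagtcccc
A match to letters is a description of the sequence, and binding was not measured here.

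Before the results, the arrays that stand apart are named. R6/2 replicate 1 had the lowest Xist level, 6.49, where the range elsewhere was 11.04 to 12.16. R6/2 x DREAM+/- replicate 3 was the highest of its group for several of the genes below, among them Atg2a. It was named from the values of these genes, so fits without it are not independent of them. Kcnip3 checked the labels: it read 9.41 to 9.89 in wild type, 7.72 to 7.82 in DREAM+/-, 9.04 to 9.23 in R6/2 and 7.43 to 7.67 in R6/2 x DREAM+/-. The mean of 13 medium spiny neuron markers, the main striatal neurons, was 12.01 to 12.13 in wild type, 11.90 to 12.01 in DREAM+/-, 11.37 to 11.52 in R6/2 and 11.26 to 11.62 in R6/2 x DREAM+/-. In whole tissue, fewer cells of a type and less RNA per cell cannot be told apart.

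Of the 41 genes, 40 were bright enough to be tested, among 13009 genes whose mean lay above the 40th percentile of probe sets (5.94). Atg9b, a paralog of the lipid scramblase gene Atg9a, lay below it: it read 5.44 to 5.63 in wild type, 5.31 to 5.70 in DREAM+/-, 5.55 to 5.88 in R6/2 and 5.60 to 5.81 in R6/2 x DREAM+/-. A gene is said to have risen, fallen or changed where limma's Benjamini-Hochberg adjusted p over all 13009 genes was under 0.05. Differences are given on the log2 scale of the probe-set values.

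The first comparison asks what the R6/2 transgene did to these transcripts. In R6/2 against wild type, 5 of the 40 genes changed (12.5%), where 25.4% of all genes did. Sqstm1, Ctsl, Lamp1 and Atg16l2 rose and Atg101 fell, each by 0.16 to 0.24. The median difference was 0.03 for the 40 genes and 0.03 for all genes, and 27 of the 40 differences were above 0 (67.5%, against 57.4% of all genes). In 5 of the 40 genes the groups did not overlap, beside 25.2% of all genes. The 95% interval of the difference lay wholly within 0.3 of zero for 30 of the 40 genes (75.0%, against 60.9% of all genes). With wild-type replicate 1, wild-type replicate 2 or R6/2 replicate 1 left out, 3 genes were called. With wild-type replicate 3, R6/2 replicate 2 or R6/2 replicate 3 left out the count was 2, and with wild-type replicate 4 left out it was 8. With both arrays that stand apart left out, 7 were called, where 25.2% of all genes were: the 5 named, Ulk1 (0.31) and Gabarap (0.17).

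**Figure D1:**
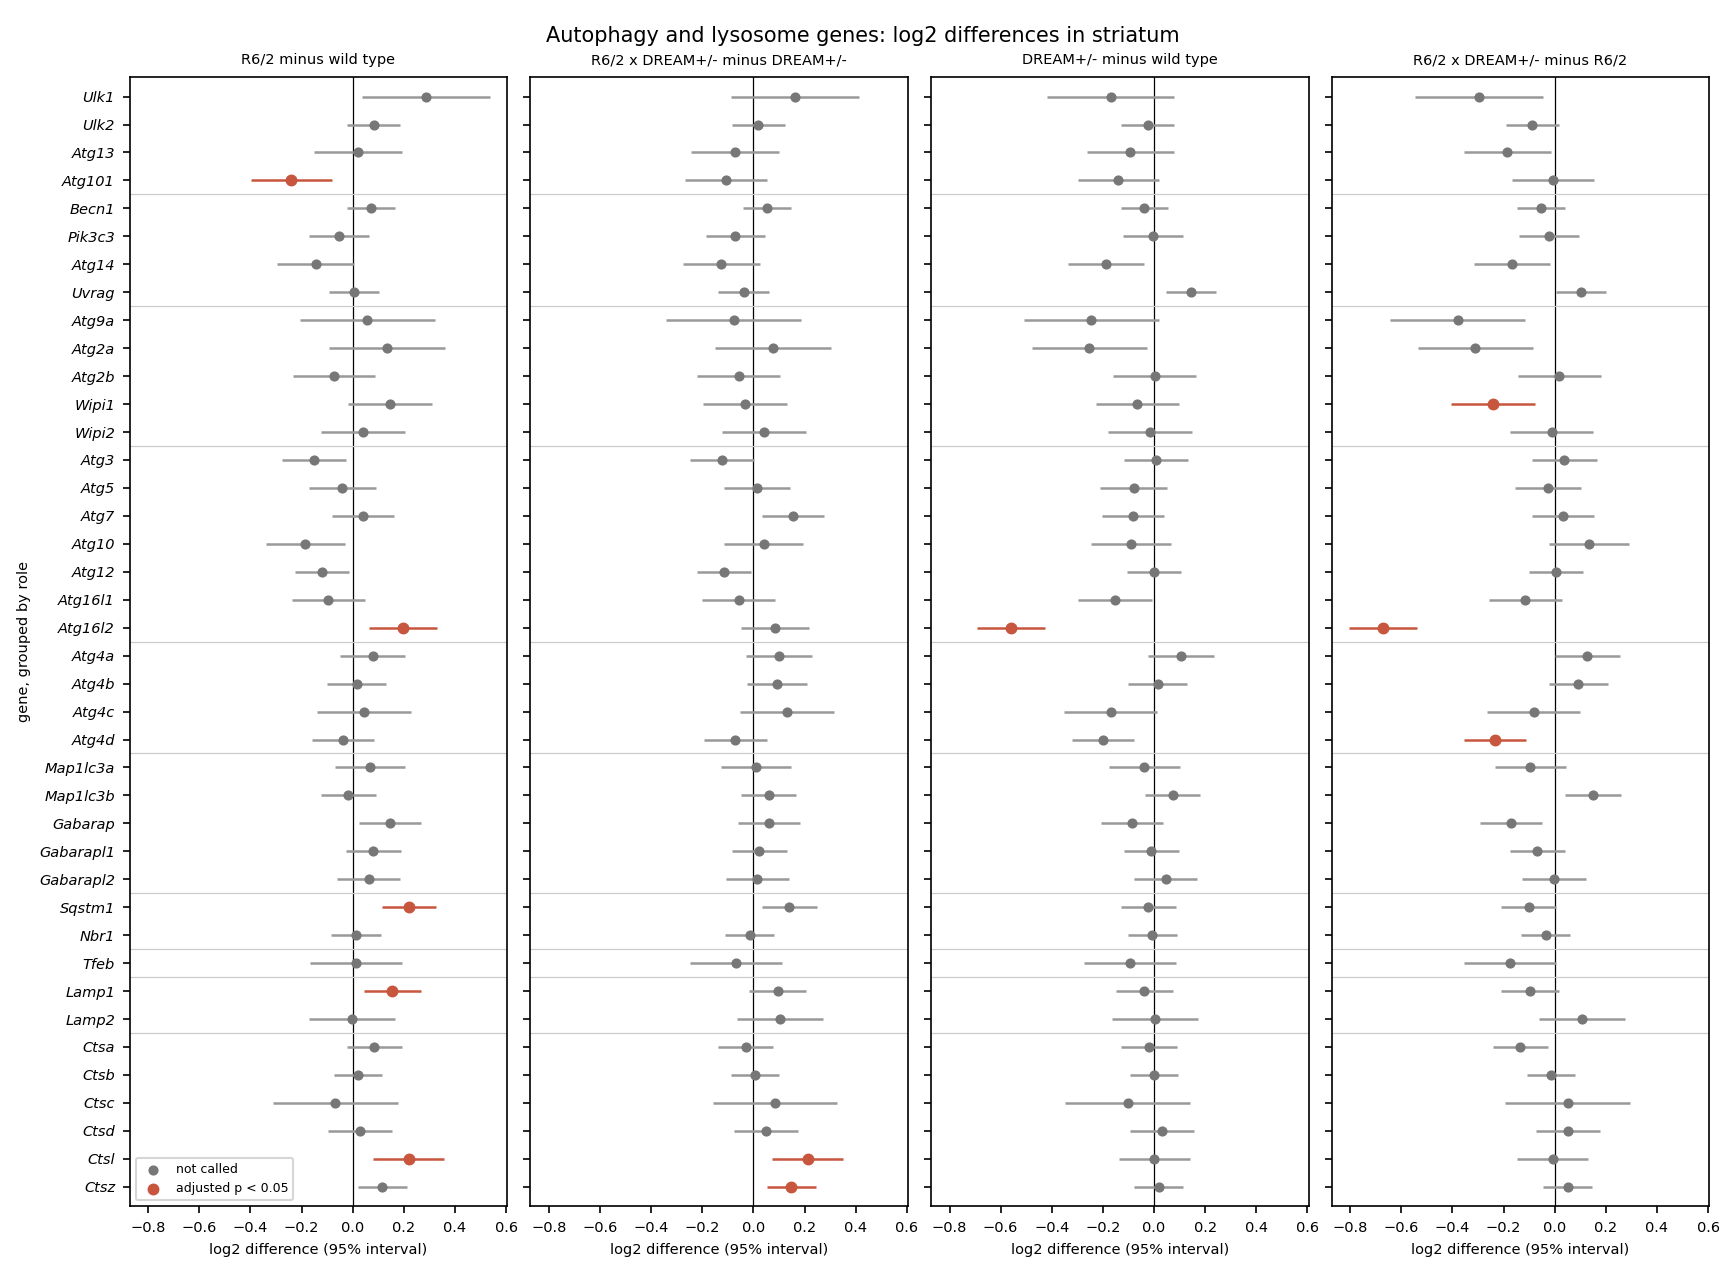
Log2 differences (horizontal axis) with 95% intervals from limma for the 40 tested genes (vertical axis, grouped by role, lines between roles) in 4 comparisons of 4 arrays against 4. Red marks an adjusted p under 0.05. Most points sit near 0, and Atg16l2 lies far to the left in both comparisons by DREAM genotype (-0.56 and -0.67).

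Sqstm1 encodes p62, the receptor that binds ubiquitinated cargo and LC3 and is itself degraded by autophagy. It read 11.95, 11.98, 12.02 and 12.08 in wild type and 12.14, 12.23, 12.29 and 12.25 in R6/2. The lowest R6/2 array lay above the highest wild-type array. The difference was 0.22 (95% interval 0.11 to 0.33, adjusted p = 0.00424). In DREAM+/- it read 11.94, 12.02, 12.01 and 11.97, and in R6/2 x DREAM+/- 12.10, 12.12, 12.05 and 12.23. These groups did not overlap either, with a difference of 0.14 (0.03 to 0.25) at an adjusted p of 0.0753. The call in R6/2 against wild type was kept when any single array was left out and lost with the mean of both probe sets (0.15), the second of which lies below the brightness limit, and with the cortical markers as a covariate (0.26, adjusted p at most 0.0608 in these settings). The mean of the cortical markers read 8.24 to 8.44 in wild type and 7.71 to 8.06 in R6/2, without overlap. That covariate and the genotype thus cannot be told apart cleanly here, nor for the genes below in this comparison. Nbr1, the other ubiquitin-binding receptor among the genes, differed by 0.01 (adjusted p = 0.866).

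Cathepsins and lysosomal membrane proteins came next in the R6/2 comparison. Ctsl, the gene of the cysteine protease cathepsin L, read 11.01, 10.90, 11.02 and 10.92 in wild type and 11.09, 11.31, 11.21 and 11.12 in R6/2. The groups did not overlap, and the difference was 0.22 (0.08 to 0.36, adjusted p = 0.0207). This call was lost without wild-type replicate 2 (0.20), R6/2 replicate 2 (0.18) or R6/2 replicate 3 (0.21), with the mean of both probe sets (0.13) and with the cortical markers as a covariate (0.18). Lamp1 encodes an abundant protein of the lysosomal membrane. It read 11.65, 11.71, 11.60 and 11.81 in wild type and 11.79, 11.88, 11.91 and 11.81 in R6/2, so the groups overlapped at wild-type replicate 4. The difference was 0.16 (0.04 to 0.27, adjusted p = 0.0417). Of 28 alternative settings, 14 kept this call, and it was lost with wild-type replicate 1, 2 or 3, any DREAM+/- replicate, or R6/2 replicate 2, 3 or 4 left out, at differences between 0.12 and 0.17. It was also lost without the brightness limit, with arrays shifted to a common median (0.13) and with only the groups compared fitted. Its paralog Lamp2 read 10.14 ± 0.10 in wild type and 10.13 ± 0.18 in R6/2 (mean ± SD, n = 4). The other probe sets of Lamp2 had higher means in R6/2, each with overlap of the groups. They read 9.86, 9.485 and 8.415 in wild type and 9.93, 9.62 and 8.685 in R6/2.

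Of the other cathepsins, Ctsz, a carboxypeptidase, differed by 0.12 (0.02 to 0.21) in R6/2 at an adjusted p of 0.0733. Ctsa, Ctsb and Ctsd differed by 0.08, 0.02 and 0.03. Cathepsin D is the main aspartic protease of the lysosome, and its transcript read 11.16 ± 0.06 in wild type and 11.19 ± 0.06 in R6/2. The interval of the Ctsb difference ran from -0.07 to 0.11, and that of Ctsd from -0.10 to 0.15. The probe sets of Ctsb disagree. A dimmer one, with a mean of 8.63, read 8.59 to 8.84 in wild type and 8.38 to 8.52 in R6/2, lower without overlap. The groups overlapped in the remaining ones, with means of 12.125, 9.41 and 6.305 in wild type and 12.10, 9.33 and 6.39 in R6/2.

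Among the initiation genes, Atg101, which stabilises ATG13 in the ULK complex, read 8.41, 8.41, 8.42 and 8.41 in wild type and 8.04, 8.33, 8.07 and 8.25 in R6/2. Every R6/2 array was below every wild-type array, and the wild-type values lay within 0.01 of each other. The difference was -0.24 (-0.40 to -0.08, adjusted p = 0.0271). Leaving out wild-type replicate 1, 2 or 3, or R6/2 replicate 1 or 3, ended the call, and the difference shrank to -0.01 with the cortical markers as a covariate. Ulk1, the kinase itself, read 9.02, 9.36, 8.92 and 9.45 in wild type and 9.40, 9.57, 9.52 and 9.41 in R6/2. Its difference of 0.29 had a wide interval (0.04 to 0.54, adjusted p = 0.0854), since wild-type replicates 1 and 3 read far lower than replicates 2 and 4.

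Of the 7 genes of the conjugation step, 5 had differences below 0, none of these 5 called. Atg10 (an E2-like enzyme), Atg3 (the E2-like enzyme for ATG8 proteins), Atg12 (a ubiquitin-like protein) and Atg16l1 (its scaffold) differed by -0.18, -0.15, -0.12 and -0.10, at adjusted p-values of 0.0762, 0.0707, 0.0860 and 0.328. Atg16l2, a paralog of Atg16l1, was the only conjugation gene called: it read 7.97, 8.02, 7.81 and 7.99 in wild type and 8.17, 8.28, 8.10 and 8.03 in R6/2. These groups did not overlap, and the difference was 0.20 (0.06 to 0.33, adjusted p = 0.0293). The call was kept in 21 of 28 alternative settings. It was lost without wild-type replicate 3 (0.15), R6/2 replicate 1 (0.19) or R6/2 replicate 2 (0.15), with the mean of both probe sets (0.11), with arrays shifted to a common median (0.17), with only the groups compared fitted (0.20) and with the cortical markers as a covariate (0.27). No ATG8 gene was called, and all but Map1lc3b had differences above 0, from 0.06 in Gabarapl2 to 0.14 in Gabarap (adjusted p = 0.0727). None of the 4 ATG4 proteases, which process ATG8 proteins, and none of the 4 PI3-kinase genes was called with its brightest probe set. The probe sets of Atg4b disagree. The one used (mean 9.01) differed by 0.015, and a dim one (mean 6.28) by 0.0275. Another (mean 8.97) differed by 0.225, at an adjusted p of 0.0120 in a fit over all probe sets. Its means were 8.8625 in wild type, 9.0875 in R6/2, 8.8875 in DREAM+/- and 9.0325 in R6/2 x DREAM+/-. In it, R6/2 did not overlap wild type, nor R6/2 x DREAM+/- overlap DREAM+/-. Tfeb read 8.02 ± 0.10 and 8.03 ± 0.11, a difference of 0.01 (-0.17 to 0.19).

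**Figure D2:**
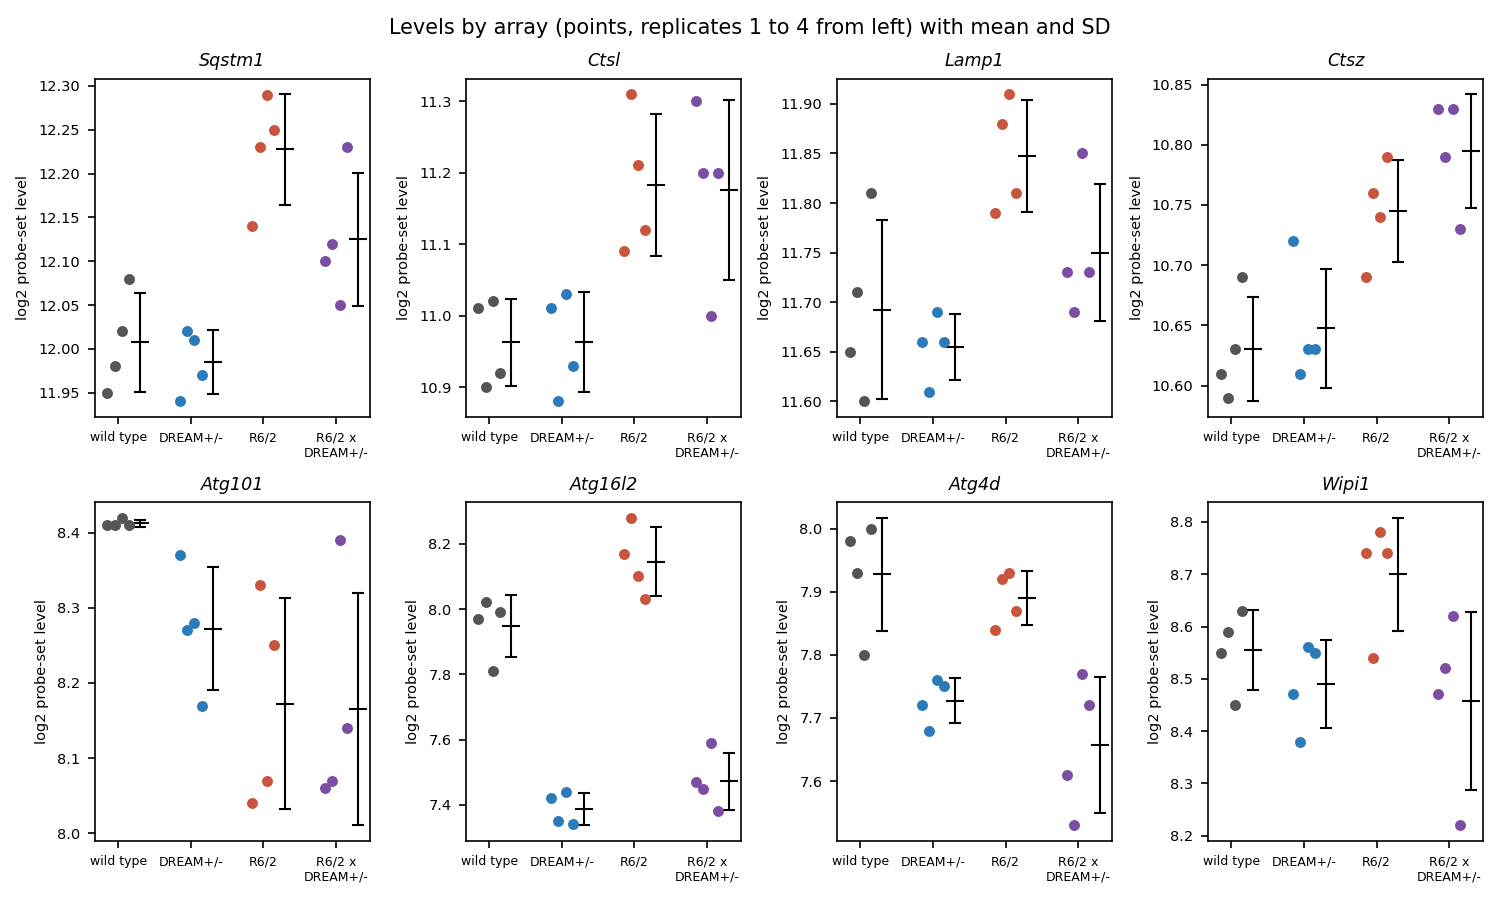
Log2 probe-set level (vertical axis, own scale per gene, not from 0) of the 8 genes called in at least 1 of the 4 comparisons, in each of the 16 arrays by genotype. Points are arrays and the bar is the mean with SD (n = 4). R6/2 arrays lie above all wild-type arrays for Sqstm1 and Ctsl, and both DREAM+/- genotypes lie below both others for Atg16l2.

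The 8 genes with a CACGTG in their promoter window did not share a direction in R6/2: Ctsl and Lamp1 rose, and the differences were 0.08 in Ctsa, 0.04 in Atg7, 0.03 in Ctsd, -0.04 in Atg5, -0.15 in Atg3 and -0.14 in Atg14, none of them called. Sqstm1, with the smallest adjusted p of the 40 genes, has no CACGTG in its window.

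The second comparison repeats the R6/2 question on the DREAM+/- background. Against DREAM+/-, 2 of the 40 genes changed in R6/2 x DREAM+/- (5.0%), where 14.9% of all genes did, and the medians were 0.02 for the 40 genes and 0.02 for all. The groups did not overlap in 4 of the 40 genes, beside 18.9% of all. Both called genes were cathepsins. Ctsl read 11.01, 10.88, 11.03 and 10.93 in DREAM+/- and 11.30, 11.20, 11.00 and 11.20 in R6/2 x DREAM+/-. Replicate 3 of the latter fell among the DREAM+/- values. The difference was 0.21 (0.07 to 0.35, adjusted p = 0.0372), and 0.27 (adjusted p = 0.00512) with that array and R6/2 replicate 1 left out. The call was kept in 18 of 28 settings. The settings that lost it, at differences from 0.17 to 0.23, included fits to only the groups compared, with the Y-linked or the cortical markers as a covariate, and without DREAM+/- replicate 1, 2 or 4 or R6/2 x DREAM+/- replicate 1, 2 or 4. Ctsz read 10.72, 10.61, 10.63 and 10.63 in DREAM+/- and 10.83, 10.79, 10.83 and 10.73 in R6/2 x DREAM+/-. The groups did not overlap, though the highest DREAM+/- array and the lowest R6/2 x DREAM+/- array were 10.72 and 10.73, and the difference was 0.15 (0.05 to 0.24, adjusted p = 0.0364). The call was kept in 16 of 28 settings, and the Y-linked covariate ended it too. The mean of the Y-linked genes read 6.54 to 6.91 in DREAM+/- and 5.33 to 6.40 in R6/2 x DREAM+/-, without overlap. For Ctsl and Ctsz alike, that covariate and the genotype thus cannot be told apart cleanly here. The other probe sets of Ctsz differed by 0.19 and 0.16 in a fit over all probe sets. No member was called without DREAM+/- replicate 2 or 4 or without R6/2 x DREAM+/- replicate 1 or 2, and 1 was called without DREAM+/- replicate 1 or 3 or R6/2 x DREAM+/- replicate 4. With both arrays that stand apart left out, the 2 called were Ctsl and Sqstm1 (0.16), where 17.4% of all genes were called, and Ctsz was not.

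The R6/2 differences on the wild-type and on the DREAM+/- background come from separate arrays. Across the 40 genes they had a Pearson correlation of 0.668, and of 0.798 across all 13009 genes, as a description over genes that are not independent. Both differences were above 0 in 20 genes and below 0 in 8. The test of the difference between the backgrounds, limma's interaction term, called none of the 40 genes and none of all genes. At an unadjusted p under 0.05 it picked 1 of the 40 and 898 of all. Averaged over both backgrounds, an estimate chosen after seeing the data, 10 of the 40 genes changed (25.0%), where 35.4% of all genes did. Those that rose were Sqstm1 (0.18), Ctsl (0.22), Ctsz (0.13), Lamp1 (0.12), Ulk1 (0.22) and Atg16l2 (0.14). Those that fell were Atg101 (-0.17), Atg3 (-0.14), Atg12 (-0.12) and Atg14 (-0.14), the subunit that directs the PI3-kinase complex to autophagy.

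**Figure D3:**
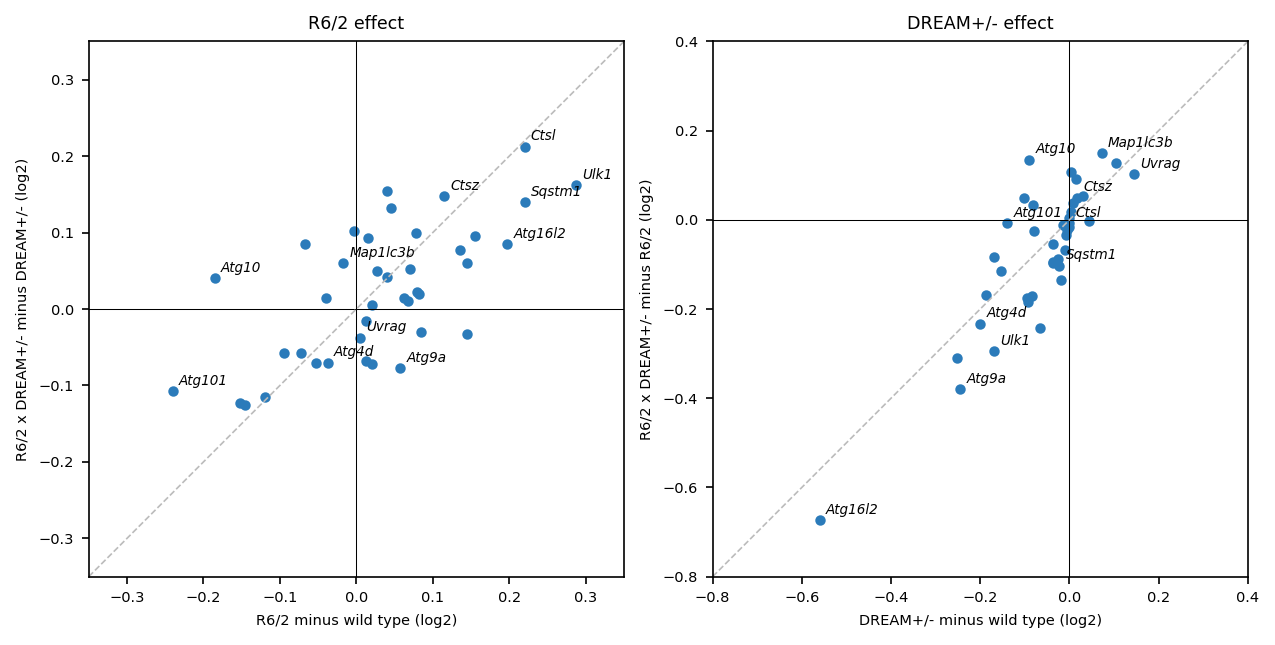
Log2 differences of the 40 tested genes (points). Left, R6/2 against wild type (horizontal) and R6/2 x DREAM+/- against DREAM+/- (vertical); right, DREAM+/- against wild type (horizontal) and R6/2 x DREAM+/- against R6/2 (vertical). The dashed line marks equal differences. Ctsl lies near it at 0.22 and 0.21 on the left, and Atg16l2 lies at -0.56 and -0.67 on the right.

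The remaining comparisons ask what the loss of 1 DREAM allele did, without and with the R6/2 transgene. In DREAM+/- against wild type, 1 of the 40 genes changed (2.50%), where 3.68% of all genes did. In R6/2 x DREAM+/- against R6/2, 3 changed (7.50%), where 14.0% of all genes did, and all 3 fell. The groups did not overlap in 4 and in 7 of the 40 genes, beside 12.5% and 15.8% of all genes. The medians were -0.03 and -0.03 for the 40 genes and -0.02 and -0.03 for all genes.

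Atg16l2 was the gene called in both. It read 7.97, 8.02, 7.81 and 7.99 in wild type and 7.42, 7.35, 7.44 and 7.34 in DREAM+/-. In R6/2 it read 8.17, 8.28, 8.10 and 8.03, and in R6/2 x DREAM+/- 7.47, 7.45, 7.59 and 7.38. All 8 arrays with 1 DREAM allele removed lay below all 8 others. The level fell by 0.56 (interval -0.69 to -0.43, adjusted p = 4.35e-05) without the transgene and by 0.67 (-0.81 to -0.54, adjusted p = 5.19e-06) with it, to 0.678 and 0.627 of the level. Both calls were kept in all 28 alternative settings, with differences between -0.61 and -0.40 and between -0.74 and -0.38. A dimmer probe set of the gene, with a mean of 6.07 just above the brightness limit, differed by -0.25 (adjusted p = 0.125) and -0.10 (adjusted p = 0.497) in a fit over all probe sets, so the size of the fall rests on 1 probe set.

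Genes that lie beside Atg16l2 on the chromosome also differed by DREAM genotype, in both directions. This look at its neighbours was chosen after the values were seen. Of the 20 nearest tested genes in the RefSeq order, 6 changed in DREAM+/- against wild type, where 3.68% of all genes did. In R6/2 x DREAM+/- against R6/2 10 changed, where 14.0% of all genes did. Fam168a rose by 0.93 and 1.06, Mrpl48 (a mitochondrial ribosomal protein) by 0.30 and 0.30, and Pde2a (a cyclic nucleotide phosphodiesterase) by 0.24 and 0.32. Stard10, a lipid transfer protein and the next tested gene, fell by 0.39 and 0.34, and Lrrc51 fell by 0.58 and 0.40. Fchsd2, the next tested gene on the other side, differed by 0.02 and 0.04. Inppl1 rose by 0.425 without the transgene and differed by -0.01 with it. Plekhb1, Relt, Arhgef17, Arap1 and Clpb were called only with the transgene, where they fell by 0.20 to 0.35. Kcnip3 lies on another chromosome. The part of chromosomal position in the Atg16l2 difference was not tested.

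**Figure D4:**
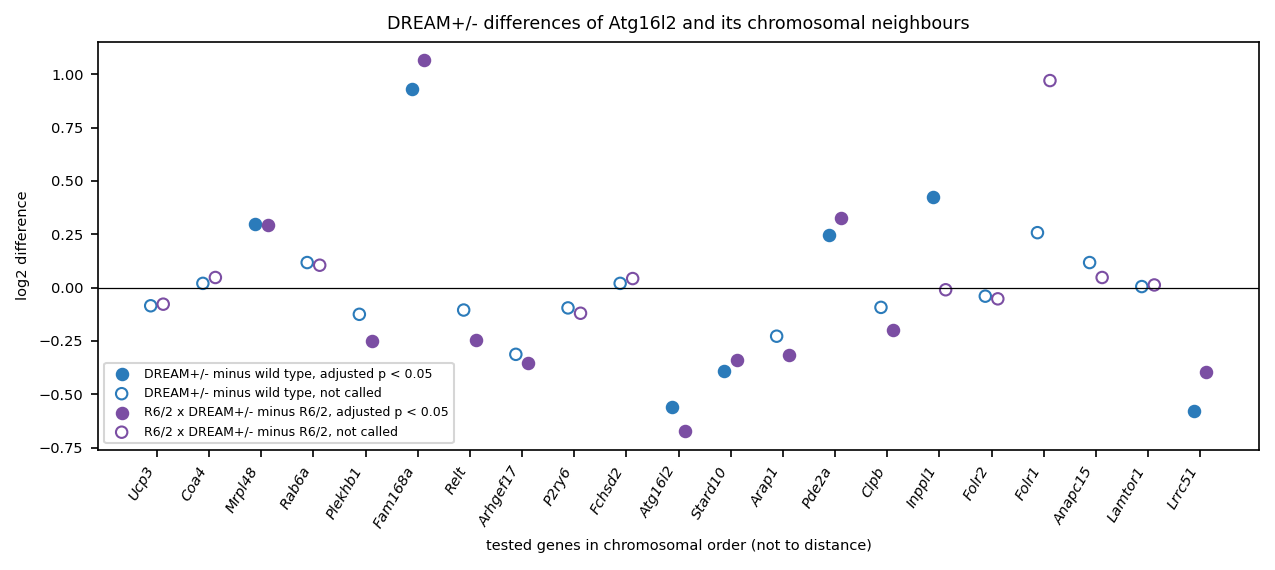
Log2 differences (vertical axis) for Atg16l2 and the 10 nearest tested genes on each side, in chromosomal order without distances (horizontal axis). Blue is DREAM+/- against wild type, purple R6/2 x DREAM+/- against R6/2, and filled circles have an adjusted p under 0.05. Fam168a lies highest at 0.93 and 1.06 and Atg16l2 lowest in purple at -0.67.

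Atg4d, a protease that removes ATG8 proteins from membranes, read 7.98, 7.93, 7.80 and 8.00 in wild type and 7.72, 7.68, 7.76 and 7.75 in DREAM+/-. In R6/2 it read 7.84, 7.92, 7.93 and 7.87, and in R6/2 x DREAM+/- 7.61, 7.53, 7.77 and 7.72. Neither pair of groups overlapped. The fall with the transgene was called (-0.23, -0.35 to -0.11, adjusted p = 0.0151), and the difference without it was -0.20 (-0.32 to -0.08) at an adjusted p of 0.0635. The call was lost without R6/2 x DREAM+/- replicate 2 (-0.19) and with the mean of both probe sets (-0.12). The second Atg4d probe set, with a mean of 4.98, lies below the brightness limit. Wipi1, a PI3P-binding protein of the forming autophagosome, read 8.74, 8.54, 8.78 and 8.74 in R6/2 and 8.47, 8.52, 8.62 and 8.22 in R6/2 x DREAM+/-. The groups overlapped, and the fall of 0.24 (interval -0.41 to -0.08) was called at an adjusted p of 0.0460. It was kept in 10 of 28 settings, and its 6 probe sets disagree: with their mean the difference turned to 0.03 (adjusted p = 0.725).

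The count in R6/2 x DREAM+/- against R6/2 depended on the array that stands apart. That array was named for its high values in several of these genes, so leaving it out lowers their group means by construction. Without R6/2 x DREAM+/- replicate 3, 10 of the 40 genes were called, all lower, where 20.8% of all genes were called. Beside Atg16l2, Atg4d and Wipi1 these were Ulk1 (-0.42), Atg2a (-0.44) and Atg9a (-0.46), which move lipid to the forming membrane, Atg16l1 (-0.18), Gabarap (-0.19), Ctsa (-0.17) and Tfeb (-0.26). With R6/2 replicate 1 left out as well, 7 were called, all lower, where 17.6% of all genes were. Without wild-type replicate 3 or 4, 6 were called, and without R6/2 x DREAM+/- replicate 2 only Atg16l2. Atg2a shows the dependence plainly: it read 7.63 to 7.71 in 3 arrays of R6/2 x DREAM+/- and 8.20 in replicate 3, against 8.03 to 8.26 in R6/2. In DREAM+/- against wild type, 2 genes were called without wild-type replicate 3 or without R6/2 x DREAM+/- replicate 2 or 3. With both arrays that stand apart left out these were Atg16l2 and Atg4d, where 5.03% of all genes were called.

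The DREAM+/- differences without and with the transgene, again from separate arrays, had a Pearson correlation of 0.851 across the 40 genes, 0.752 without Atg16l2 and 0.705 across all genes. Both were below 0 in 24 of the 40 genes and above 0 in 9. Averaged over both, 8 of the 40 genes changed, where 22.1% of all genes did. Atg16l2 (-0.62), Atg9a (-0.31), Atg2a (-0.28), Atg4d (-0.22), Atg14 (-0.18) and Gabarap (-0.13) fell. Uvrag, a partner of the PI3-kinase complex in endosome and autophagosome maturation, rose by 0.12, and Map1lc3b, the gene of LC3B, by 0.11. Uvrag read 8.83 to 8.97 in wild type and 9.01 to 9.10 in DREAM+/-, without overlap, and 8.87 to 8.99 in R6/2 and 8.97 to 9.07 in R6/2 x DREAM+/-, with overlap. Map1lc3b read 12.22 to 12.28 in R6/2 and 12.34 to 12.47 in R6/2 x DREAM+/-, without overlap, and 12.21 to 12.37 and 12.28 to 12.45 in the groups without the transgene. Other bright probe sets of Map1lc3b differed less. Their means were 11.9475 and 11.61 in R6/2 and 11.9475 and 11.65 in R6/2 x DREAM+/-. In wild type they were 11.885 and 11.62, and in DREAM+/- 11.93 and 11.66. The 6 cathepsin transcripts among the 40 genes were not called in either DREAM comparison with all arrays, with differences between -0.14 and 0.05. Outside the 40 genes, the cathepsins Ctsf (-0.155) and Ctso (-0.12) fell in the average over both backgrounds. They belong to a list of other lysosomal proteins, described below, of which 31.6% changed in that average.

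Other genes of the pathway, from 6 lists outside the 41 genes, were set beside them. Of 38 tested lysosomal proteins other than the named cathepsins and LAMPs, 14 rose in R6/2 against wild type and 1 fell (39.5%, beside 25.4% of all genes), with a median of 0.12 against 0.03 for all genes. Cln3, a lysosomal membrane protein, rose by 0.41, Galns (a sulfatase of glycosaminoglycans) by 0.39, Gaa (the glucosidase that degrades lysosomal glycogen) by 0.34 and Man2b1 (a mannosidase) by 0.34, while Cd68, a lysosomal protein of microglia, fell by 0.31. The count of 15 became 9 without R6/2 replicate 3 and 9 with the cortical covariate. Of 16 tested vacuolar ATPase genes, whose products acidify the lysosome, 5 rose and none fell (31.2%, beside 25.4% of all genes), among them Atp6ap1 (0.25) and Atp6v1a (0.25). This count was 1 without wild-type replicate 1, 2 without wild-type replicate 3 or R6/2 replicate 3, and 3 without R6/2 replicate 1, 2 or 4. It was 1 with the cortical covariate, 2 with arrays shifted to a common median, and 3 with only the groups compared or with both arrays that stand apart left out. Of 36 regulators of mTORC1, AMPK and TFEB, 2 rose and 6 fell (22.2%, below the 25.4% of all genes), the latter led by Rragd (-0.54), a Rag GTPase that tethers mTORC1 and TFEB to the lysosome, and Foxo1 (-0.52). Among 12 initiation partners Wdr45b (0.18) rose and Bcl2 (-0.38) and Vmp1 (-0.20) fell, among 12 further receptors Ncoa4 (0.23) rose and Calcoco1 (-0.25) fell, and among 13 fusion genes Stx17 (0.21) rose. These are 25.0%, 16.7% and 7.69% of their lists, at or below the share of all genes.

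With the R6/2 transgene on the DREAM+/- background, 4 of the 38 lysosomal proteins rose and 2 fell (15.8%), 3 of 16 vacuolar ATPase genes rose (18.8%), and 2 of 36 regulators rose and 3 fell (13.9%), again with Foxo1 (-0.50) and Rragd (-0.34) lower. These shares lie near the 14.9% of all genes. Whether the effect differed between backgrounds is the interaction, which called no gene. In R6/2 x DREAM+/- against R6/2, 8 of the 38 lysosomal proteins fell and 1 rose (23.7%, beside 14.0% of all genes). This comparison and that of R6/2 against wild type share the R6/2 arrays, with opposite sign. Spread in those arrays alone would push both differences of a gene in opposite directions, so opposite signs are no evidence of a reversal. In that order, Cln3 differed by -0.39 and 0.41, Gaa by -0.42 and 0.34 and Galns by -0.30 and 0.39. Arsa differed by -0.26 and 0.20, and Ppt1 by -0.23 and 0.20. Cln3 read 7.16 to 7.22 in wild type, 6.92 to 7.08 in DREAM+/-, 7.47 to 7.76 in R6/2 and 7.06 to 7.35 in R6/2 x DREAM+/-. The R6/2 arrays were the highest, above all 12 others. The count of 9 became 5 without R6/2 replicate 2 or 4 and 4 without R6/2 x DREAM+/- replicate 4. In DREAM+/- against wild type none of the 38 lysosomal proteins was called by limma, and of the 6 lists only Vps33a (-0.29), of the fusion machinery, and Zkscan3 (0.62), a repressor of autophagy genes, changed. Zkscan3 also rose in R6/2 x DREAM+/- against R6/2 (0.90), where Tfe3, a relative of TFEB, fell by 0.35.

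**Figure D5:**
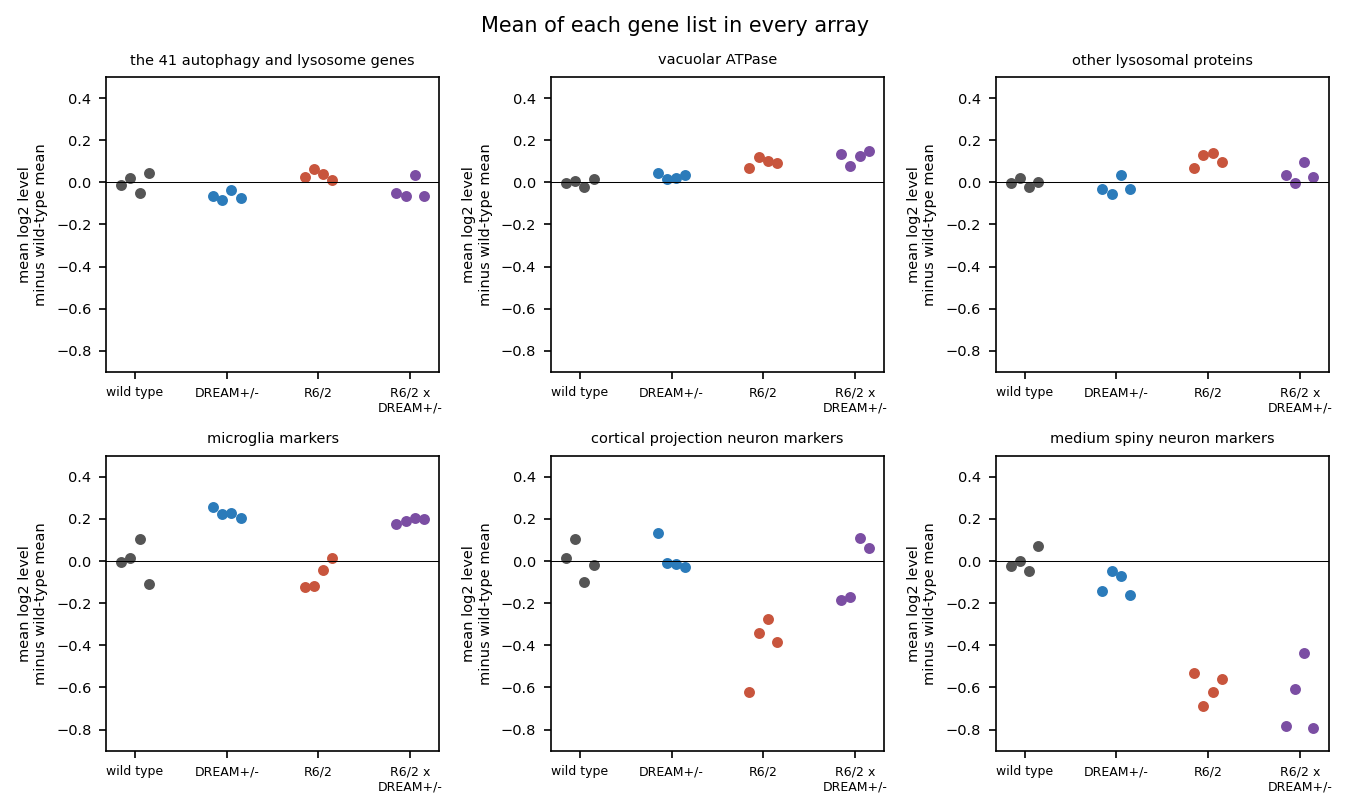
Mean log2 level of each gene list in each of the 16 arrays, less the wild-type mean of that list (vertical axis, same scale in all panels), by genotype. The mean of other lysosomal proteins is 9.21 to 9.25 in wild type and 9.30 to 9.37 in R6/2, while microglia markers are higher in both DREAM+/- genotypes and medium spiny neuron markers lower in both R6/2 genotypes.

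Markers of several cell types also differed between the groups. The mean of 15 microglia markers, cells rich in lysosomal transcripts, was 8.48 to 8.69 in wild type, 8.79 to 8.85 in DREAM+/-, 8.47 to 8.61 in R6/2 and 8.77 to 8.80 in R6/2 x DREAM+/-. In DREAM+/- against wild type 4 of the 15 rose (26.7%, beside 3.68% of all genes), Fcrls by 0.83 and C1qb by 0.41, and none fell. In R6/2 x DREAM+/- against R6/2 6 of the 15 rose and none fell (40%, beside 14.0% of all genes). In the DREAM+/- difference averaged over both backgrounds, 10 rose and 1 fell, Aif1 by 0.21 (73.3%, beside 22.1% of all genes). In R6/2 against wild type 1 fell, C1qc by 0.21 (6.67%, beside 25.4% of all genes). Of 9 astrocyte markers, 4 fell in R6/2 against wild type, among them Gjb6 (-0.43), and S100b rose (0.44). That is 55.6%, beside 25.4% of all genes. In R6/2 x DREAM+/- against DREAM+/- 3 of the astrocyte markers fell (33.3%, beside 14.9%). Their mean was 10.80 to 10.93 in wild type, 10.88 to 10.92 in DREAM+/-, 10.68 to 10.74 in R6/2 and 10.71 to 10.86 in R6/2 x DREAM+/-. Of 9 oligodendrocyte markers, 4 fell in each of these comparisons and none rose (44.4% in both, beside 25.4% and 14.9%), with Ugt8a lower by 0.60 and 0.48. Their mean was 12.02 to 12.19 in wild type, 12.07 to 12.14 in DREAM+/-, 11.81 to 11.91 in R6/2 and 11.84 to 11.95 in R6/2 x DREAM+/-. The mean of 10 markers of cortical projection neurons was 8.24 to 8.44 in wild type, 8.31 to 8.47 in DREAM+/-, 7.71 to 8.06 in R6/2 and 8.15 to 8.45 in R6/2 x DREAM+/-. With that mean as a covariate, 2 of the 40 genes were called in R6/2 against wild type, Lamp1 (0.28) and Ulk1 (0.60), where 10.6% of all genes were. The wild-type and R6/2 ranges of that mean do not overlap, so this covariate and the genotype cannot be told apart cleanly. Calls kept or lost with it therefore do not show what part cell composition had. The part of cell composition in the differences of the 40 genes was not tested.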

How the data were processed

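RNA of whole striatum was hybridized to Affymetrix 430 2.0 arrays, 4 per genotype. The authors deposited 1 table of log2 values for 45101 probe sets, and RMA and affy are named in the submitters' processing notes without version, role or order. RMA puts arrays on a common distribution, so a shift common to most genes would not show. Groups and replicate numbers are those of the sample titles. Of the probe sets, 34945 have exactly 1 symbol in the platform annotation, 932 several, 9160 none, and 64 are controls; 99.42% of those used matched a gene table by Entrez identifier. For each gene the probe set with the highest mean was taken, and genes below the 40th percentile of means (5.944) were not tested. No source used here gives the array's genome build.

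The test was limma 3.58.1 under R 4.3.3 (lmFit, eBayes) on all 16 arrays with 1 mean per genotype, Benjamini-Hochberg adjusted over 13009 genes; the step was tested on simulated data. The number of arrays limits precision. Correlations between replicates were 0.9903 to 0.998. Of 24 pairs of arrays with the same replicate number, 11 had deviations correlated over 0.1 (range -0.41 to 0.29). The median correlation was 0.066 for these pairs and -0.013 for pairs with different numbers. Whether arrays with the same number were handled together was not tested, and the main fit treats them as unpaired. Alternatives changed the brightness filter, the probe sets averaged, quantile or median scaling, the prior, array weights, the arrays fitted, a replicate block, Y-linked or cortical marker covariates, and left out each array. The cortical marker mean did not overlap between R6/2 and either wild type or R6/2 x DREAM+/-. The Y-linked mean did not overlap between DREAM+/- and R6/2 x DREAM+/-. In these comparisons the covariate and the genotype cannot be told apart cleanly. Named genes are those called, the leading genes of each list by p, and members of each role; the neighbours of Atg16l2, the averaged effects and the alternatives for the lysosomal and vacuolar ATPase lists were added after seeing the data. The members, gene lists and tests were all chosen with earlier results of these data known.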

Additional observations from a re-analysis of the deposited data

Results flagged for a closer look

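In 12 of 164 gene and group combinations, 1 array lay far from the other 3 of its group by Dixon's test; chance gives about 1 in 20. The largest gap was Atg2a in R6/2 x DREAM+/- replicate 3, which read 8.20 where the others read 7.63 to 7.71. R6/2 replicate 3 stood apart in Atg2b (8.80, others 8.61 to 8.64), Atg4a (7.29, others 7.35 to 7.36) and Map1lc3b (12.22, others 12.28). R6/2 replicate 2 stood apart in Atg9a (9.96, others 9.79 to 9.80) and Wipi1 (8.54, others 8.74 to 8.78). DREAM+/- replicate 4 stood apart in Atg7 (8.14, others 8.05) and Gabarapl1 (12.82, others 12.90), and DREAM+/- replicate 1 in Atg10 (7.76, others 7.63 to 7.64). Gabarapl1 read 12.77 in R6/2 x DREAM+/- replicate 1, where the others read 12.94 to 12.96. Wild-type replicate 4 read 8.81 in Atg4b (others 9.02 to 9.05). Atg101 in wild-type replicate 3 met the same criterion at 8.42 with the others at 8.41, a range of 0.01.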

How the results depend on the processing

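Of 308 settings tried over the 11 calls of single genes, 232 kept the call, 75 lost it in the same direction, and 1 reversed it: Wipi1 in R6/2 x DREAM+/- against R6/2 was 0.035 with the mean of all its probe sets. In R6/2 against wild type, the 5 called members became 10 averaged over both backgrounds, 8 with array weights, 3 with only the groups compared and 2 with the cortical covariate, and ranged from 2 to 8 with single arrays left out; for all genes, 3307 became 1378 with the cortical covariate. In R6/2 x DREAM+/- against DREAM+/-, the 2 members became 1 without the brightness filter, with arrays shifted to a common median or with the cortical covariate, 4 with array weights, 0 with only the groups compared, the replicate block or the Y-linked covariate, and ranged from 0 to 2. In DREAM+/- against wild type, the 1 member became 8 averaged over both backgrounds and 2 with the mean of all probe sets, array weights, the cortical covariate or both arrays that stand apart left out, and ranged from 1 to 2; all genes went from 479 to 899 with array weights and ranged from 280 to 703. In R6/2 x DREAM+/- against R6/2, the 3 members became 6 with a filter at the 60th percentile or the Y-linked covariate, 5 with a trended and robust prior, 8 with array weights and 7 with both arrays out, and ranged from 1 to 10; all genes went from 1819 to 1070 with only the groups compared and 1014 with the cortical covariate, and ranged from 1067 to 2708. The interaction called 0 of all genes, 3 with the 60th percentile filter or a common median, 1 after quantile normalization, and 0 to 2 with single arrays left out. The replicate block changed a count of members by over 1.5 times only in R6/2 x DREAM+/- against DREAM+/-, where it ended both calls (Ctsl and Ctsz), and it ended that of Lamp1 in R6/2 against wild type and of Wipi1 in R6/2 x DREAM+/- against R6/2. The lysosomal proteins called in R6/2 x DREAM+/- against R6/2 went from 9 to 4 with the mean of all probe sets. With 4 arrays a group, the median half-width of a member's interval was 0.13, which limits what 1 comparison can resolve.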
